A study of Mus musculus with 12 samples.

Results

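The 10 genes described here mark pericentral hepatocytes or respond to Wnt signaling in the liver: *Glul*, *Oat*, *Rgn*, *Slc1a2* and *Lect2* on one side, and *Axin2*, *Lgr5*, *Rnf43*, *Tbx3* and *Nkd1* on the other. They were taken by symbol from the 17007 genes of the deposited values, and all 10 were found. The pericentral cytochrome P450 genes were left out. The samples were 3 livers of wild-type C57BL/6 mice (normal liver) and 9 c-MYC/MCL1 tumors from Rictor fl/fl Tsc2 fl/fl mice, in which hydrodynamic tail vein injection had delivered plasmids for c-MYC, MCL1 and Cre, so that all 3 tumor groups carry the label of a *Rictor* and *Tsc2* knockout. The c-MYC and MCL1 plasmids used the EF1α promoter and the Cre plasmid the CMV promoter, neither of them specific to hepatocytes. The tumor-bearing mice received vehicle, MLN0128 or everolimus (3 libraries each), the drugs at 1 mg/kg per day by gavage, on 6 days a week for 3 weeks from day 6 after injection, with sacrifice at week 3.7. Those times are from the labels and methods, whereas the study's results text gives a drug treatment of days rather than weeks. MLN0128 inhibits the mTOR kinase in both of its complexes, whereas everolimus, an analog of rapamycin, acts mainly on mTORC1. The plasmids reach hepatocytes by this route, the other cells of the host liver keep both genes, the tumor is sampled as bulk tissue, the normal livers carried neither plasmids nor floxed alleles, and animal ages were not given in the sources used here.

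Hepatocytes differ along the axis of the liver lobule. Cells around the central vein make glutamine, carry out much of drug metabolism and receive Wnt ligands and R-spondins from the endothelium of that vein. Wnt signaling stabilizes beta-catenin, which activates target genes together with TCF/LEF factors. Some targets, among them *Axin2*, *Rnf43* and *Nkd1*, limit the same pathway, so that they serve both as readouts and as brakes. *Glul* is widely used as a marker of beta-catenin activity in liver tumors.

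The sequences upstream of the transcription start are shown for 3 members, the secreted factor with the largest fall on the log2(FPKM + 1) scale (*Lect2*), an enzyme gene (*Oat*) and a negative feedback gene of the pathway (*Axin2*). RefSeq promoter entries (GRCm38.p6) were matched for 7 of the 10 members. *Rgn*, *Tbx3* and *Lgr5* were not matched. Each line gives the 250 bases before the start, 5′ to 3′ on the strand of the gene, and capitals mark CTTTGA or CTTTGT, the core of TCF/LEF binding sites, or the reverse complement of either.
Lect2, chr13:56548539-56548788, minus strand: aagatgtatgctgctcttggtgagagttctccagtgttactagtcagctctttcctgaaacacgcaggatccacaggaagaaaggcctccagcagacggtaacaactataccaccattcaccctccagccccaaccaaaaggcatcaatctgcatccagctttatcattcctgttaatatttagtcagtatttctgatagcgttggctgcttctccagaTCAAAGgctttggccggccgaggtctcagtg
Oat, chr7:132576399-132576648, minus strand: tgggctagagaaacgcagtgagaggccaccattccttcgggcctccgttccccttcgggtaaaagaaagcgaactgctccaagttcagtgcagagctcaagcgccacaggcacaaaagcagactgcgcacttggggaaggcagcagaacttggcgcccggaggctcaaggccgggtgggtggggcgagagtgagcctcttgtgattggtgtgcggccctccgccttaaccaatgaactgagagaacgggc
Axin2, chr11:108920099-108920348, plus strand: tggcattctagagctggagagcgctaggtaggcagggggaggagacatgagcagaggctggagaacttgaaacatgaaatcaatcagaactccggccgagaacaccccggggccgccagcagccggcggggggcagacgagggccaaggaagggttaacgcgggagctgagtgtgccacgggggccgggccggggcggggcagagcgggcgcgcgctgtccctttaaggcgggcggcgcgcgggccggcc
The *Lect2* match begins 31 bases before the start, and *Slc1a2* held a pair of matches that begin 77 and 206 bases before its RefSeq start. That *Slc1a2* window (chromosome 2, 102706188 to 102706437) lies inside the gene and overlaps 1 exon, and its start was not found in an annotated transcript. Thus 2 of the 7 matched members held these letters, and 27.6% of 32851 promoters of the same length did. CACGTG, the E-box bound by MYC and other factors, was found in 0 of the 7, and in 6.02% of all promoters. *Axin2* and *Oat* held neither motif in this window, which describes only these letters in these bases.

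Values are FPKM (fragments per kilobase of exon and per unit of sequencing depth, as scaled by the authors), so levels may be compared between genes per length. The FPKM could be turned back into whole reads, 17145546 to 25162320 per library (median 18634396), and 3 reads were taken as the floor of detection. By these reads, MLN0128 replicates 1 and 2 had *Xist* RNA at 191 and 155 FPKM and Y-linked genes (4 examined) at 0 reads, which set them apart from all 10 others, and everolimus replicate 2 had the most reads and stood apart in *Alb* and in markers of several other liver cell types, as given with the everolimus results. The libraries with *Xist* RNA are all in the MLN0128 group, so the comparisons of that group are partly confounded with this difference. For genes outside the members, the MLN0128 results are given only with these libraries included. The general hepatocyte markers (10 genes) summed to 82957 to 103002 FPKM in normal liver. In tumors the sum was 4246 to 6585 after vehicle, 2191 to 4621 after MLN0128 and 3401 to 8362 after everolimus, so hepatocyte transcripts were present in every tumor at a lower level. *Rictor* and *Tsc2* were measured over whole genes and not over the floxed exons. Against normal liver their log2 fold changes in the vehicle group were -0.44 and -0.91 (adjusted p = 0.0115 and 2.46e-05), but 0.36 and 0.0044 after rescaling to TPM, neither past the threshold, so these values do not check the deletion.

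All 10 members fell in the vehicle-treated tumors, each with all 3 tumors below all 3 livers (the plot of all 12 libraries for the 10 genes). The fall in the mean FPKM ranged from 5.18-fold for *Glul* to 161-fold for *Slc1a2* over the 9 members other than *Lgr5*, which was at 0 to 2 reads per tumor. The tests were limma's moderated test on log2(FPKM + 1), with Benjamini-Hochberg adjustment over 14393 genes and a threshold of 0.05. All 10 members passed, where 33.0% of all tested genes passed in this direction and 36.0% in the other, and 35.1% had all 3 tumors below all 3 livers. Against a fold change of 1.5 (limma's treat test), 9 of the 10 passed and 16.8% of all genes did, the exception being *Axin2* (treat adjusted p = 0.0875). By limma's voom on the recovered reads all 10 were lower, where 32.3% of all genes were. The balance of all genes depends on the scaling, since 5176 were higher and 4750 lower as deposited, 9650 and 1689 after rescaling to TPM, and 8821 and 2179 with plain library totals, yet all 10 members were lower under each. Of the 10 genes, 4 (*Slc1a2*, *Axin2*, *Lgr5* and *Nkd1*) passed the filter of 0.5 FPKM in 3 libraries through normal liver alone, so these had to be lower in tumors. *Rnf43* and *Tbx3* reached 0.5 FPKM in 2 tumor libraries each, none of them with vehicle. They too needed normal liver to pass, so their lower values with vehicle are also tied to the filter. In bulk tissue, fewer cells of a type and less RNA per cell cannot be told apart.

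**Figure D1:**
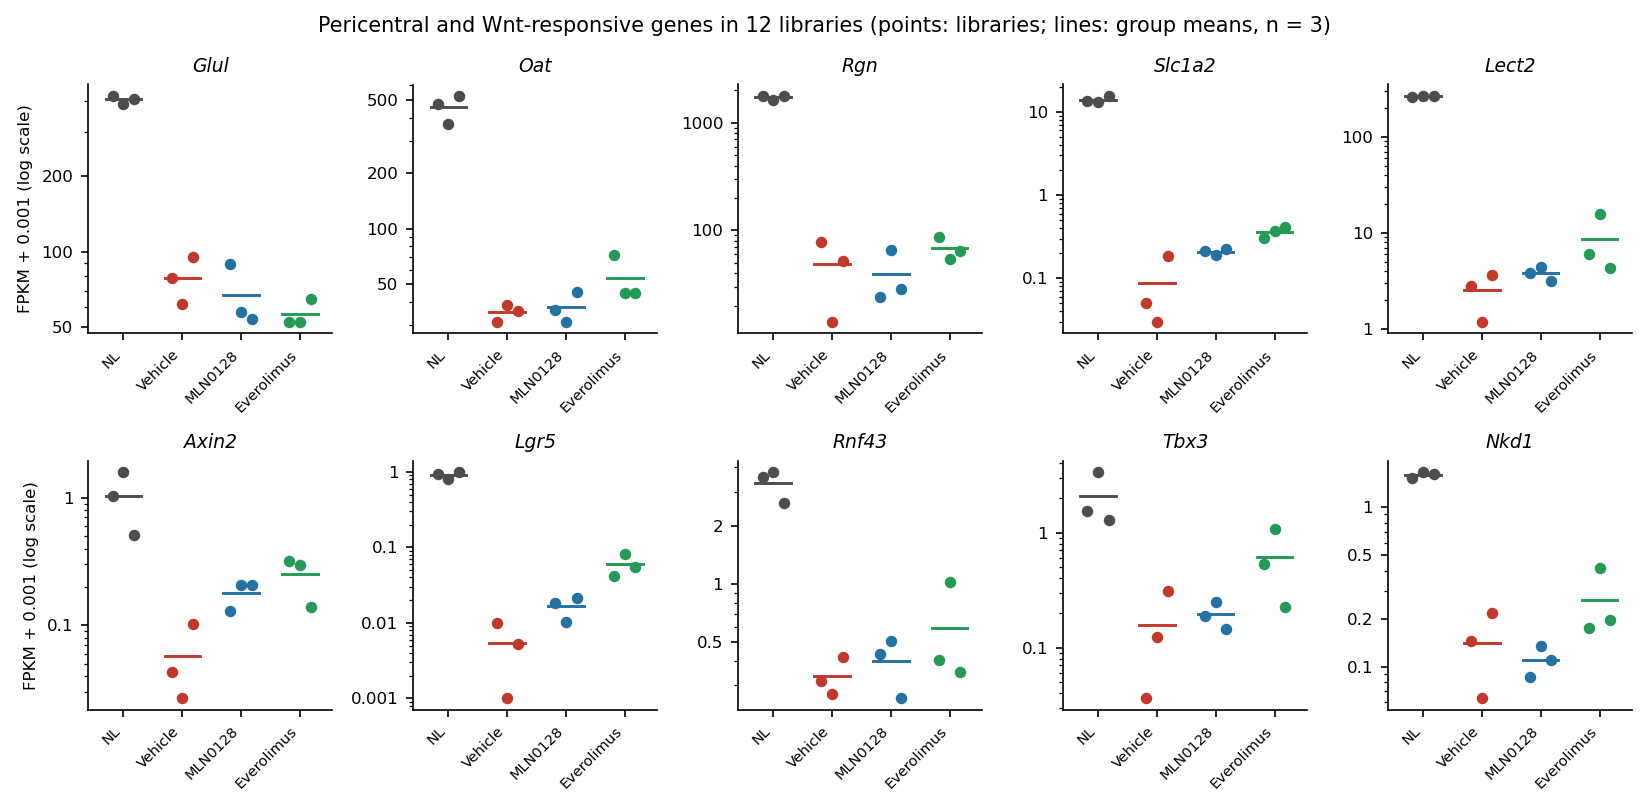
FPKM of the 10 genes in each of the 12 libraries (points) with group means (lines, n = 3), on log axes after adding 0.001. Every tumor library lies below every normal liver (NL) for each gene, with *Glul* the closest to normal liver and *Lgr5* at or near 0 in the vehicle group.

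*Glul* encodes glutamine synthetase, which fixes ammonia in the last rows of hepatocytes around the central vein (ENSMUSG00000026473.15, GRCm38 chromosome 1, 153899944 to 153909723, plus strand). The normal livers had 420, 391 and 409 FPKM and the vehicle-treated tumors 78.7, 61.6 and 95.2. The groups were far apart, yet 19.3% of the normal mean was left, the highest share among the 10 members. The log2 fold change was -2.38 (SE 0.202, adjusted p = 1.11e-06). With MLN0128 the values were 89.3, 57.7 and 53.8 FPKM, and with everolimus 52.5, 52.6 and 64.5. Both drug groups overlapped the vehicle group, and *Glul* was the member with the most negative estimate with everolimus.

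*Oat* encodes ornithine aminotransferase, a mitochondrial enzyme that links ornithine to glutamate (ENSMUSG00000030934.9, chromosome 7, 132557478 to 132576398, minus strand). Its FPKM were 472, 368 and 525 in normal liver and 31.2, 38.6 and 35.7 with vehicle. The fall was 12.9-fold in the means (log2 fold change -3.65, SE 0.209, adjusted p = 6.03e-08). With MLN0128 it was at 36.3, 31.2 and 45.4, and with everolimus at 71.6, 44.8 and 44.8. The 3 everolimus libraries were all above the 3 vehicle libraries, and the MLN0128 libraries were not.

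*Rgn* encodes regucalcin, a calcium-binding gluconolactonase (ENSMUSG00000023070.6, chromosome X, 20549787 to 20562089, plus strand). It was the most abundant member in normal liver, at 1780, 1610 and 1770 FPKM, and dropped to 78.3, 14.1 and 52.0 with vehicle. These tumors differed among themselves more than for the other enzymes, with replicate 2 the lowest (log2 fold change -5.43, SE 0.516, adjusted p = 2.61e-06). It was at 24.1, 65.1 and 28.7 with MLN0128 and 86.1, 54.0 and 64.3 with everolimus. Both drug groups overlapped the vehicle group. The gene is X-linked, and the MLN0128 libraries with *Xist* RNA are the first 2 of those values.

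*Slc1a2* encodes a high-affinity glutamate transporter, found in the liver at pericentral hepatocytes (ENSMUSG00000005089.15, chromosome 2, 102658659 to 102790784, plus strand). Its FPKM were 13.4, 13.2 and 15.6 in normal liver and 0.0497, 0.0289 and 0.183 with vehicle. These correspond to 1894, 1909 and 2135 reads and to 14, 8 and 56 reads. The fall was 161-fold in the means, and the log2 fold change of -3.79 (SE 0.102, adjusted p = 3.36e-10) understates it, because 1 FPKM was added. With MLN0128 the gene was at 0.212, 0.189 and 0.223, and with everolimus at 0.302, 0.367 and 0.410. The 4 groups did not overlap anywhere in the order normal liver, everolimus, MLN0128 and vehicle. The last step was narrow, with 53 reads in MLN0128 replicate 2 (0.189) and 56 in vehicle replicate 3 (0.183).

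*Lect2* encodes a secreted protein of hepatocytes that is a known target of beta-catenin in the liver (ENSMUSG00000021539.9, chromosome 13, 56542464 to 56548502, minus strand). Normal liver had 260, 266 and 264 FPKM, the narrowest spread of any member relative to its mean, and the vehicle group 2.79, 1.19 and 3.64. The fall was 104-fold in the means and the largest of the 10 on the log2(FPKM + 1) scale (-6.29, SE 0.365, adjusted p = 6.55e-08). Only 0.354% of all tested genes, *Lect2* included, had a value this negative or more so, and the upstream sequence of this gene is printed above. It was at 3.87, 4.39 and 3.14 with MLN0128 and 6.05, 15.7 and 4.28 with everolimus. The everolimus libraries were all above vehicle, and replicate 2 was well above the other pair.

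The 5 Wnt-responsive members were much less abundant, at 0.505 to 3.77 FPKM in normal liver, and fell to 0 to 0.419 in vehicle-treated tumors. *Axin2* encodes a scaffold of the beta-catenin destruction complex and is a feedback target in many tissues (ENSMUSG00000000142.15, chromosome 11, 108920349 to 108950783, plus strand). Its FPKM were 1.03, 1.58 and 0.505 in normal liver and 0.0424, 0.0258 and 0.101 with vehicle, that is 61, 96 and 29 reads against 5, 3 and 13. The log2 fold change was -0.91 (SE 0.159, adjusted p = 0.000302), and normal liver replicate 3 was the lowest of its group. With MLN0128 it was at 0.128, 0.205 and 0.205, and with everolimus at 0.317, 0.294 and 0.139. Both drug groups lay above all vehicle libraries and overlapped each other.

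*Lgr5* encodes a receptor for R-spondins that marks Wnt-responsive cells (ENSMUSG00000020140.15, chromosome 10, 115450311 to 115587780, minus strand). Normal liver had 0.940, 0.795 and 0.990 FPKM, from 104, 90 and 106 reads. The vehicle libraries gave 2, 0 and 1 reads, at or below the floor of 3 reads in each. The 300 reads over the normal livers against 3 over the vehicle tumors gave a ratio of 204 after library size, with a 95% counting interval of 69.2 to 996. The log2 fold change was -0.92 (SE 0.0788, adjusted p = 1.14e-06), which the added 1 FPKM bounds. With MLN0128 there were 5, 2 and 5 reads and with everolimus 8, 25 and 14, or 0.0172, 0.00914 and 0.0204 FPKM and 0.0413, 0.0804 and 0.0547 FPKM. Everolimus lay clear of the other tumor groups, whereas MLN0128 replicate 2 (0.00914) and vehicle replicate 1 (0.00909) both rest on 2 reads.

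*Rnf43* encodes a ubiquitin ligase that removes Wnt receptors from the cell surface (ENSMUSG00000034177.15, chromosome 11, 87662722 to 87735539, plus strand). Its FPKM were 3.58, 3.77 and 2.62 in normal liver and 0.313, 0.268 and 0.419 with vehicle. The fall was 9.97-fold in the means (log2 fold change -1.69, SE 0.163, adjusted p = 2.93e-06). With MLN0128 it was at 0.435, 0.508 and 0.255, and with everolimus at 0.404, 1.02 and 0.349. Both drug groups overlapped vehicle, and everolimus replicate 2 was alone above all other tumor libraries.

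*Tbx3* encodes a T-box transcription factor (ENSMUSG00000018604.18, chromosome 5, 119670669 to 119684724, plus strand). Its FPKM were 1.55, 3.34 and 1.29 in normal liver and 0.0352, 0.122 and 0.311 with vehicle (log2 fold change -1.35, SE 0.235, adjusted p = 0.000295). Its spread within groups was wide, with the vehicle values running from 5 to 48 reads. With MLN0128 it was at 0.186, 0.248 and 0.145, and with everolimus at 0.535, 1.08 and 0.224. *Nkd1* encodes an antagonist of Dishevelled (ENSMUSG00000031661.12, chromosome 8, 88521354 to 88594884, plus strand). Its FPKM were 1.51, 1.65 and 1.62 in normal liver and 0.143, 0.0624 and 0.217 with vehicle (log2 fold change -1.19, SE 0.0987, adjusted p = 9.56e-07). With MLN0128 it was at 0.0850, 0.134 and 0.11, and with everolimus at 0.174, 0.413 and 0.194, and both drug groups overlapped the vehicle group. The *Tbx3* drug groups overlapped vehicle as well. For both genes everolimus replicate 2 was the highest tumor library.

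In normal liver the mean FPKM ordered the members as *Rgn* (1720), *Oat* (455), *Glul* (407), *Lect2* (263), *Slc1a2* (14.1), *Rnf43* (3.32), *Tbx3* (2.06), *Nkd1* (1.59), *Axin2* (1.04) and *Lgr5* (0.908). The libraries of *Oat* and *Glul* overlapped, as did those of each neighboring pair from *Rnf43* to *Lgr5*. In vehicle-treated tumors *Glul* came first (78.5 ± 16.8, SD, n = 3), before *Rgn* (48.1 ± 32.3) and *Oat* (35.2 ± 3.73), and *Rgn* overlapped each of the other two. *Slc1a2* had dropped below *Rnf43*, and in its mean below *Tbx3* and *Nkd1*, whose libraries overlapped its own. The share of the normal mean that remained with vehicle was 10.03% for *Rnf43*, 8.84% for *Nkd1*, 7.73% for *Oat*, 7.58% for *Tbx3*, 5.43% for *Axin2*, 2.80% for *Rgn*, 0.965% for *Lect2*, 0.620% for *Slc1a2* and 0.487% for *Lgr5*. Neither subset was spared as a whole, since *Slc1a2* and *Lgr5* lay at one end and *Glul* and *Rnf43* at the other.

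**Figure D2:**
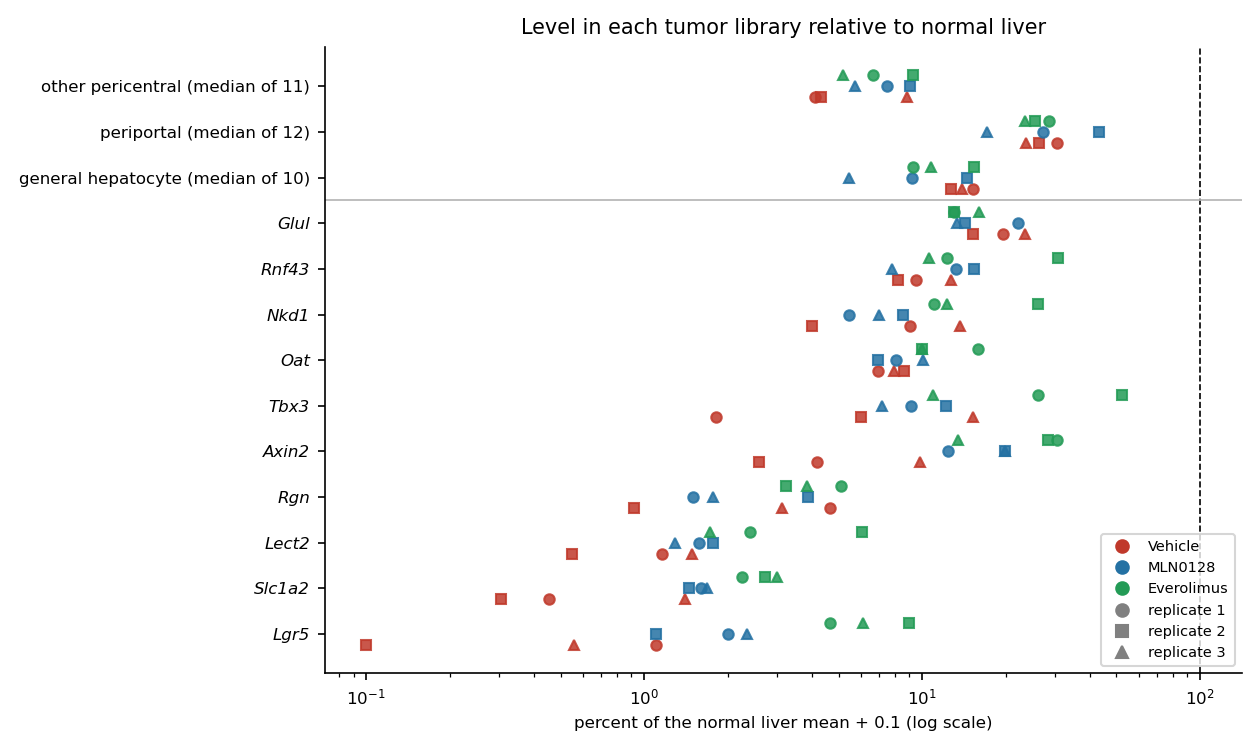
Level in each tumor library as a percent of the normal liver mean (log axis, 0.1 added), with the dashed line at the normal mean, colors for treatment and symbols for replicate. The members run from *Lgr5* and *Slc1a2* under 1% on average with vehicle to *Glul* at 19.3%, and the 3 top lines give the median gene of other hepatocyte lists.

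Other hepatocyte genes fell in the same comparison. To set beside these and the later lists against normal liver, 33.0% of all tested genes were lower and 36.0% higher. After rescaling to TPM, 1689 of the 14393 were lower and 9650 higher. Of 11 other pericentral genes, 11 were lower and 0 higher, with a median log2 fold change of -2.57. The largest falls were those of *Pon1* (paraoxonase), *Gulo* (vitamin C synthesis) and the transporter gene *Slco1b2*, at -7.95, -6.35 and -5.92. After rescaling to TPM 10 of the 11 were lower. Of 12 periportal genes, which serve urea synthesis, amino acid breakdown and gluconeogenesis, 10 were lower and 1, *Aldh1b1* (3.57), was higher, with a median of -1.84, and 7 were lower and 2 higher after rescaling to TPM. The largest falls were those of *Pck1* (gluconeogenesis), *Sds* (serine breakdown) and *Uroc1* (histidine breakdown), at -6.32, -3.21 and -3.03, and the mean of *Pck1* went from 1197 to 16.2 FPKM. All 10 general hepatocyte markers were lower, with a median of -2.86 and the largest falls in *Alb* (albumin, -5.50), *Tdo2* (tryptophan breakdown, -4.24) and *Tat* (tyrosine breakdown, -3.09), and 9 were lower after rescaling to TPM. The members' median was -2.03 and that of all tested genes 0.06. On the linear scale, the median gene of the other pericentral list stood at 4.01%, 4.24% and 8.69% of the normal mean in the 3 vehicle-treated tumors, that of the periportal list at 30.4%, 26.1% and 23.4%, that of the general list at 15.2%, 12.6% and 13.8%, and that of the members at 4.32%, 3.20% and 8.79%. These medians are a description, and no test of the difference between the lists was made.

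**Figure D3:**
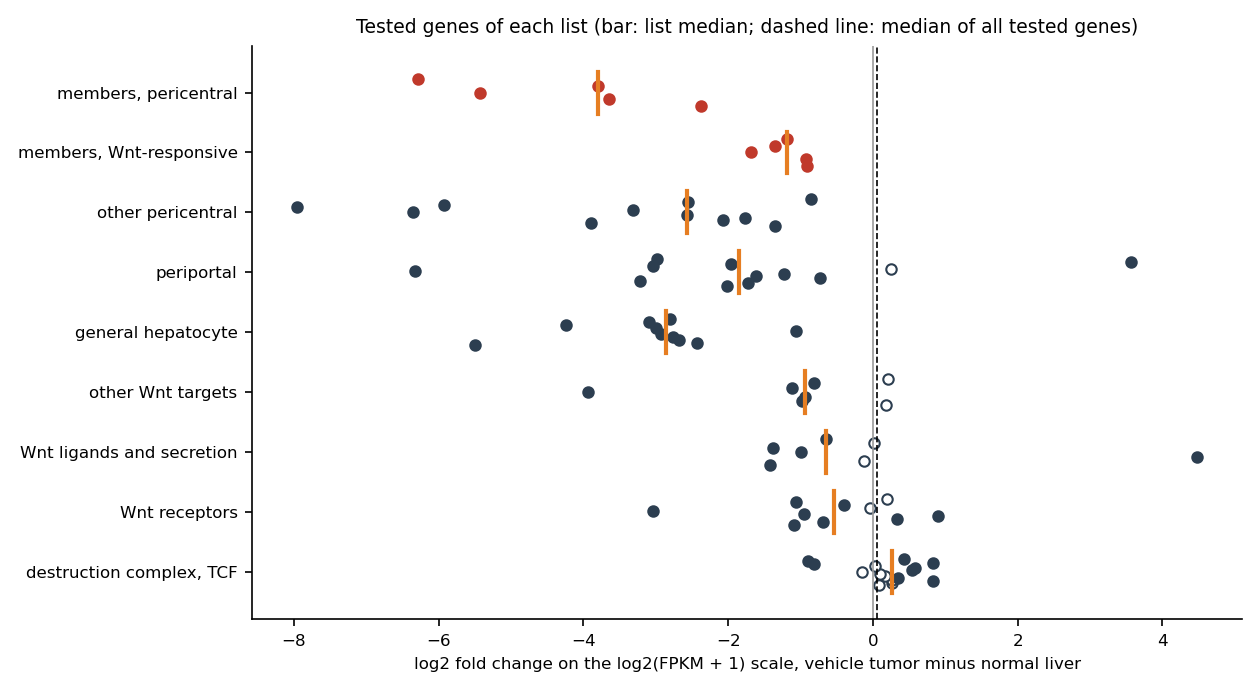
Log2 fold change of the tested genes of 9 lists in vehicle-treated tumors against normal liver, on the log2(FPKM + 1) scale, with filled points for genes past an adjusted p of 0.05, an orange bar for the list median and a dashed line for the median of all tested genes (0.06). Members and other hepatocyte genes lie mostly to the left, and *Wnt4* (4.48) is the outermost point on the right.

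The Wnt pathway itself was measured at several levels. Of 7 tested target genes other than the members, 5 were lower and 0 higher in vehicle-treated tumors, and 2 were lower and 2 higher after rescaling to TPM. *Notum*, a secreted Wnt deacylase, had 14.4, 18.8 and 14.5 FPKM in normal liver and 0.0194, 0.0788 and 0.214 with vehicle (log2 fold change -3.93, SE 0.167, adjusted p = 7.64e-09). Among the tumors *Notum* was over 0.5 FPKM only in an everolimus library (1.11). It needed normal liver to pass the filter, so its lower values with vehicle are tied to the filter. *Sp5*, a transcription factor gene activated by Wnt, went from 29, 29 and 11 reads to 0 in each of the 3 vehicle libraries. Its highest tumor value was 0.101 FPKM, so *Sp5* passed the filter through normal liver alone and had to be lower in tumors. *Ccnd1*, the cyclin D1 gene, was also lower (-1.12, adjusted p = 0.0228), though not past the threshold after rescaling to TPM (-0.27, adjusted p = 0.626). *Znrf3*, the partner gene of *Rnf43*, did not pass (0.18, adjusted p = 0.291), at 2.5, 3.0 and 2.15 FPKM in normal liver and 2.83, 3.67 and 2.59 with vehicle.

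Among 7 tested genes for ligands, R-spondins and their secretion, 4 were lower and 1 was higher, and 2 were lower and 2 higher after rescaling to TPM. *Wnt2* and *Rspo3*, ligand and R-spondin genes of the central vein and sinusoidal endothelium, had 2.59, 2.29 and 1.87 FPKM and 1.86, 2.0 and 2.17 FPKM in normal liver. With vehicle they were at 0.290, 0.105 and 0.228 and at 0.211, 0.0921 and 0.153. The log2 fold changes were -1.43 (SE 0.119, adjusted p = 9.63e-07) for *Wnt2* and -1.39 (SE 0.102, adjusted p = 3.85e-07) for *Rspo3*. Their highest tumor values were 0.469 and 0.46 FPKM, both with everolimus. Both genes thus passed the filter of 0.5 FPKM through normal liver alone and had to be lower in tumors. *Wnt5b* was lower as well (-0.99), but not past the threshold after rescaling to TPM (-0.23, adjusted p = 0.489). *Wnt9b*, the other central vein ligand gene, reached 0.5 FPKM in 1 library alone and was not tested, at 0.780, 0.261 and 0.467 FPKM in normal liver and 0.279, 0.0840 and 0.209 with vehicle. *Wnt4* moved the other way, from 0.663, 0.411 and 0.754 FPKM to 40.7, 31.4 and 32.7 (log2 fold change 4.48, SE 0.252, adjusted p = 5.37e-08).

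The list of endothelial markers moved with the ligand genes. Of its 8 genes, 5 were lower and 0 higher in vehicle-treated tumors, led by *Clec4g* (-4.26), *Kdr* (-1.60) and *Tek* (-1.49), and they summed to 59.5 to 70.8 FPKM in normal liver and 17.9 to 23.0 with vehicle. None of the 8 was at 0. After rescaling to TPM 3 were lower and 2 higher, with a list median of 0.0098 against 1.00 for all genes, where the median as deposited was -0.96 against 0.06. Their part in the lower ligand values was not tested. Stellate cell and fibroblast markers summed to 83.5 to 119 FPKM in normal liver and 19.4 to 33.8 with vehicle (5 of 7 lower, 2 higher). *Dcn*, *Lrat* and *Colec11* were the lowest (-3.35, -3.12 and -2.86), and the collagen gene *Col1a1* (2.98) and *Pdgfrb* (0.48) were higher. Among the tumors only everolimus replicate 2 reached 0.5 FPKM for *Lrat*. This gene needed normal liver to pass the filter, so its lower values with vehicle are tied to the filter. Kupffer cell and macrophage markers summed to 135 to 156 FPKM and 39.6 to 63.6 (5 of 7 lower, 1 higher), with *Clec4f*, *Vsig4* and *Timd4* the lowest (-3.55, -3.29 and -1.88) and *Cd68* higher (2.31). After rescaling to TPM 4 of the stellate and 3 of the Kupffer list were lower. Cholangiocyte markers summed to 39.9 to 43.4 FPKM in normal liver and 79.9 to 131 with vehicle (3 of 4 tested higher, 0 lower), led by *Cldn4*, *Krt19* and *Epcam* (5.38, 4.13 and 1.5). Of the lymphocyte markers 1 gene was tested, and it did not pass.

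Receptor genes were mixed and depended on the scaling, with 6 of 10 lower and 2 higher as deposited and 1 lower and 5 higher after rescaling to TPM. *Fzd8* (-3.03), *Fzd1* (-1.09) and *Lgr4* (-1.07) were the lowest, and *Fzd6* (0.90) and *Fzd5* (0.34) were higher. *Fzd8* was at most 0.363 FPKM with vehicle and 0.435 with MLN0128, and ran from 0.204 to 0.503 with everolimus. It needed normal liver to pass the filter of 0.5 FPKM, so its lower values with vehicle are tied to the filter. *Lgr4*, which like *Lgr5* encodes an R-spondin receptor, remained at 10.4, 9.27 and 9.55 FPKM with vehicle, against 23.1, 17.0 and 25.1 in normal liver, and its log2 fold change after rescaling to TPM was 0.057 (adjusted p = 0.729). Of 15 genes for the destruction complex, Dishevelled, beta-catenin and TCF factors, 6 were higher, led by *Bcl9* (0.83), *Axin1* (0.83) and *Dvl3* (0.58), and 2 were lower, *Bcl9l* (-0.90) and *Tcf7l2* (-0.81). After rescaling to TPM 13 of the 15 were higher and 0 lower, with *Bcl9l* at 0.078 and *Tcf7l2* at -0.081. Of all tested genes, 36.0% were higher and 33.0% lower as deposited. After rescaling to TPM, 9650 of the 14393 were higher and 1689 lower. *Ctnnb1*, the beta-catenin gene, had 60.1, 60.7 and 64.2 FPKM in normal liver and 57.6, 69.6 and 70.6 with vehicle (0.09, adjusted p = 0.489). *Tcf7l2*, the main TCF factor gene of the liver, had 2.61, 2.09 and 3.10 FPKM in normal liver and 1.19, 0.988 and 0.958 with vehicle. Of 2 tested secreted inhibitors, *Dkk3* was higher (0.35). RNA levels say nothing of beta-catenin protein.

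**Figure D4:**
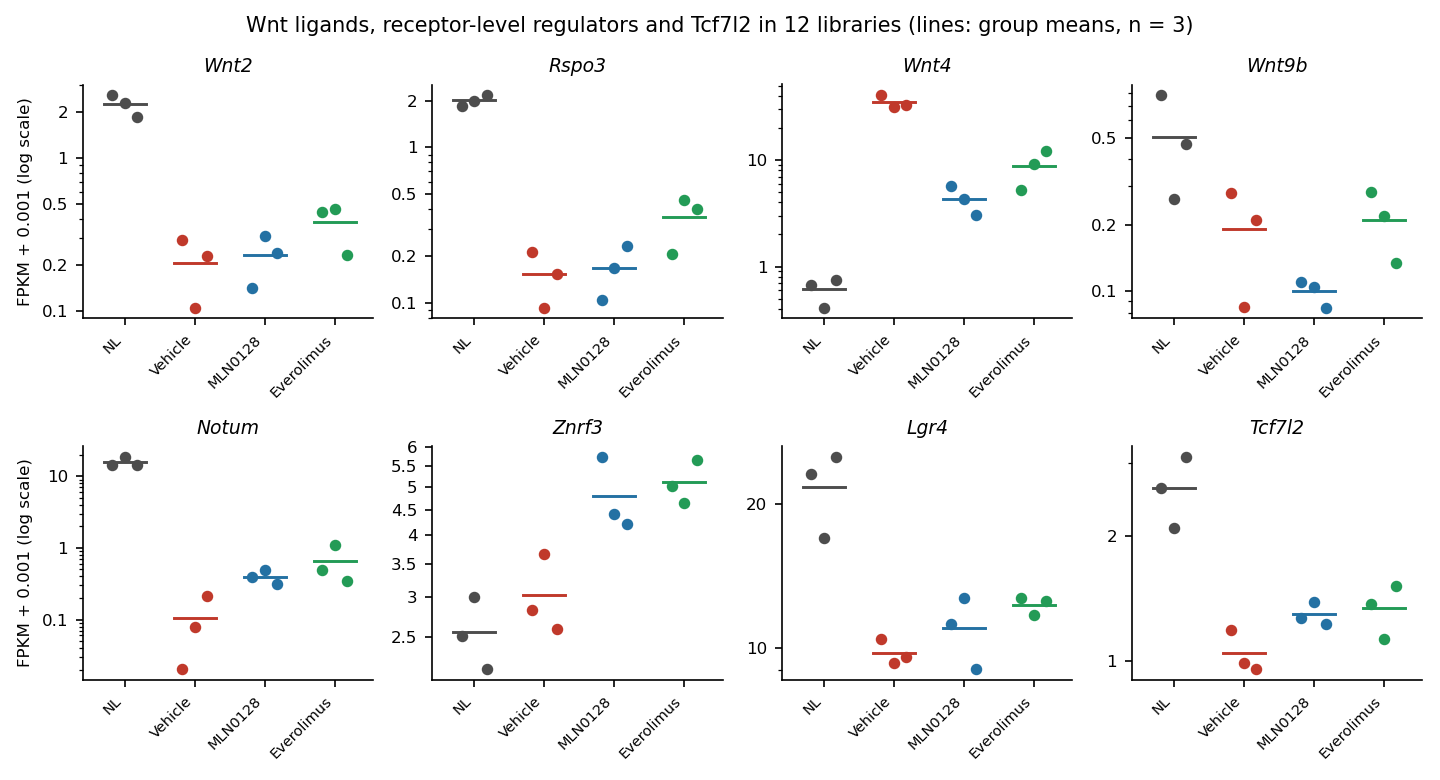
FPKM (log axes, 0.001 added) of 8 Wnt pathway genes in the 12 libraries, with lines at the group means (n = 3). *Wnt2*, *Rspo3* and *Notum* are lower in every tumor library than in every normal liver, and *Wnt4* is higher in every tumor library and highest in the vehicle group.

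MLN0128 moved none of the 10 members past the threshold. By limma's moderated test 0 were higher and 0 lower than in the vehicle group, 0 had an unadjusted p under 0.05, and limma's treat test gave 0 (0.479% of all genes higher and 1.65% lower), while 14.9% of all tested genes were higher and 17.1% lower (2142 and 2463 genes, which became 3548 and 1269 after rescaling to TPM). The estimates were positive for 7 members and negative for *Glul*, *Rgn* and *Nkd1*, with a median of 0.06 on the log2 scale. The 95% intervals show what remained possible. That of *Slc1a2* ran from -0.07 to 0.38 on the log2(FPKM + 1) scale, that of *Glul* from -0.68 to 0.20, that of *Lect2* from -0.30 to 1.30 and that of *Rgn* from -1.25 to 1.01. All 3 MLN0128 libraries lay above all 3 vehicle libraries for 3 members, *Axin2*, *Slc1a2* and *Lgr5*, as they did for 22.1% of all genes.

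These 3 genes were under 1 FPKM in every tumor, where the added 1 FPKM compresses a change. Fitted as recovered reads with limma's voom, *Slc1a2* was higher with MLN0128 (log2 fold change 1.63, SE 0.481, adjusted p = 0.0204), and 15.7% of all genes were higher by that fit. With a pseudocount of 0.1 it was higher too (0.81, adjusted p = 0.0473), as were 14.5% of all genes. *Axin2* (1.72, adjusted p = 0.0726) and *Lgr5* (1.63, adjusted p = 0.0914) did not pass. The 202 reads of *Slc1a2* over the MLN0128 libraries against 78 over the vehicle libraries gave a ratio of 2.31 (95% counting interval 1.77 to 3.05). For *Axin2*, 71 against 21 reads gave 3.02 (1.83 to 5.18). For *Lgr5*, 12 against 3 reads gave 3.57 (0.965 to 19.7), which includes no difference. These intervals cover counting error only. Without the pair of MLN0128 libraries with *Xist* RNA, the log2 fold change of *Slc1a2* was 0.17 and that of *Lect2* 0.29, against 0.15 and 0.50 with them, and no member passed.

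With everolimus, *Lect2* rose, from 2.54 ± 1.24 FPKM (SD, n = 3) with vehicle to 8.68 ± 6.15 (n = 3). Its log2 fold change was 1.34 (SE 0.365, adjusted p = 0.0408). It was the 1 member past the threshold, in a comparison where 3.77% of all genes were higher and 6.04% lower. Treat called 0 members (0.0347% of all genes higher, 0.57% lower), and a pseudocount of 0.1 called 2 higher, *Lect2* and *Slc1a2* (3.46% of all genes). The level reached was 3.30% of the normal mean. At an unadjusted p under 0.05, *Slc1a2*, *Lect2* and *Oat* were higher and *Glul* was lower, and the adjusted p values of *Slc1a2*, *Oat* and *Glul* were 0.0639, 0.106 and 0.178. The estimates were positive for 9 of the 10 members, with a median of 0.28 against 0.03 for all genes. All 3 everolimus libraries lay above all 3 vehicle libraries for 5 members, *Axin2*, *Slc1a2*, *Lgr5*, *Lect2* and *Oat*, and for 17.7% of all genes.

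The call on *Lect2* was not stable. It was lost in 9 of the 12 fits that left out 1 library, those without any 1 normal liver or vehicle replicate, MLN0128 replicate 1, or everolimus replicate 1 or 2, with adjusted p values of 0.0557 to 0.109. Without everolimus replicate 2 the log2 fold change was 0.85 (adjusted p = 0.0640). By voom on recovered reads it was 1.74 (SE 0.527, adjusted p = 0.0507), which missed the threshold, and the 22 alternatives gave adjusted p values between 0.0224 and 1. After rescaling to TPM *Lect2* missed it (1.54, adjusted p = 0.0672) and *Slc1a2* passed in its place (0.72, adjusted p = 0.0403). The same voom fit called 2 other members higher, where 4.99% of all genes were. They were *Slc1a2* (2.42, SE 0.458, adjusted p = 0.00652) and *Lgr5* (3.46, SE 0.640, adjusted p = 0.00593). The 355 reads of *Slc1a2* against 78 gave a ratio of 4.04 (95% counting interval 3.15 to 5.23), and the 47 reads of *Lgr5* against 3 gave 13.9 (4.48 to 69.9). *Axin2* had an adjusted p of 0.0560 by voom, at 101 against 21 reads. Against normal liver these levels were still low, with 2.56% of the normal mean for *Slc1a2*, 6.47% for *Lgr5* and 24.1% for *Axin2*.

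Everolimus replicate 2 was the highest tumor library for *Alb*, *Clec4f* and *Lrat* and for the summed Kupffer, stellate and endothelial lists, but not for the periportal list. Its *Alb* was 4860 FPKM, against 482 to 1840 in the other 8 tumor libraries, its Kupffer cell marker *Clec4f* 26.2 against 2.07 to 11.6, and its stellate cell marker *Lrat* 1.24 against 0.151 to 0.484. It was also the highest tumor library for *Lect2*, *Lgr5*, *Rnf43*, *Tbx3* and *Nkd1*, and not for *Glul*, *Oat*, *Rgn*, *Slc1a2* or *Axin2*. The part of these cells in the everolimus values was not tested. The whole Kupffer cell and macrophage list summed to 82.5 FPKM in this library and to 25.0 and 29.8 in the other everolimus libraries, the stellate and fibroblast list to 42.1 and to 30.5 and 31.2, the endothelial list to 26.6 and to 17.2 and 17.0, and the general hepatocyte list to 8362 and to 3516 and 3401, with *Alb* making up 4860 of the 8362. The periportal list summed to 1642 FPKM in this library and to 1939 and 1625 in the other everolimus libraries, 1730 to 2060 with vehicle and 864 to 2023 with MLN0128. Without this library the log2 fold changes with everolimus were 0.05 for *Rnf43* (0.23 with it), 0.06 for *Nkd1* (0.14), 0.25 for *Tbx3* (0.45), 0.32 for *Slc1a2* (0.32) and 0.68 for *Oat* (0.57), none past the threshold.

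**Figure D5:**
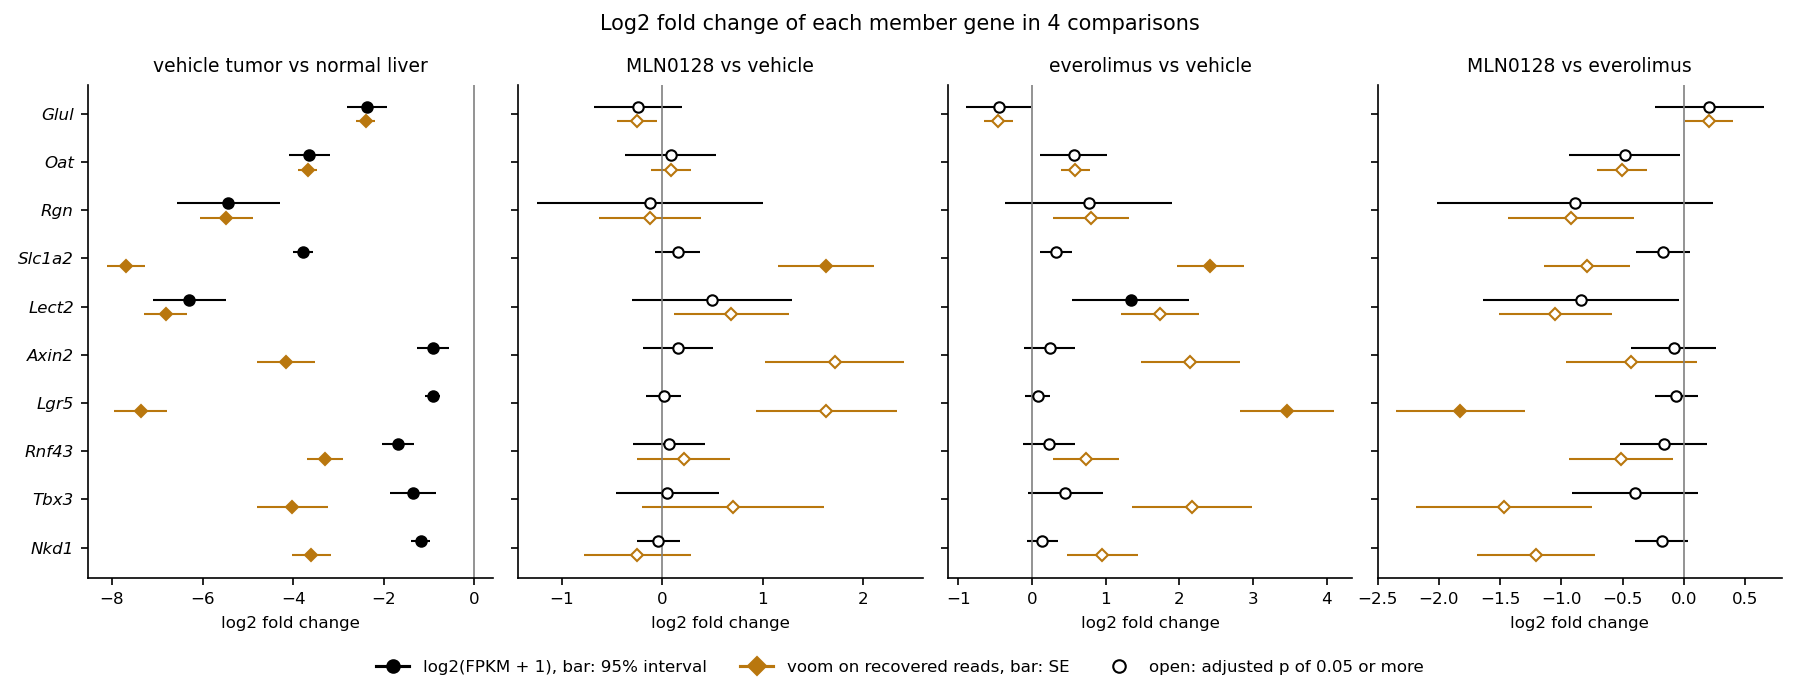
Log2 fold change of each member in the 4 comparisons, from log2(FPKM + 1) (circles, bars for 95% intervals) and from recovered reads by voom (diamonds, bars for SE), with filled symbols for an adjusted p under 0.05. All members are lower in vehicle-treated tumors by both fits. With the drugs the filled symbols are *Lect2* by the first fit (everolimus) and *Slc1a2* (both drugs) and *Lgr5* (everolimus, and MLN0128 against everolimus) by the second.

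Compared directly, the drugs did not differ for any member by the moderated test. With MLN0128 against everolimus, 0 members were higher and 0 lower after adjustment, 2 were lower at an unadjusted p under 0.05 (*Lect2* and *Oat*), treat gave 0 (0.00695% of all genes higher, 0.0347% lower), and 3.99% of all genes were higher and 5.54% lower by the moderated test (575 and 797 genes, which became 1256 and 196 after rescaling to TPM). The estimates were negative for 9 members, with *Glul* the exception (0.21). The 95% interval of *Lect2* ran from -1.64 to -0.04, that of *Oat* from -0.94 to -0.03 and that of *Glul* from -0.23 to 0.65. All 3 MLN0128 libraries were below all 3 everolimus libraries for *Slc1a2*, *Lgr5* and *Nkd1*, and for 15.2% of all genes. By voom *Lgr5* was lower with MLN0128 (-1.82, SE 0.526, adjusted p = 0.0432), at 12 reads against 47, in a fit that called 6.7% of all genes lower.

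Some other genes of the pathway passed the threshold with the drugs. Among all tested genes, 14.9% were higher and 17.1% lower with MLN0128, and 3.77% and 6.04% with everolimus. *Wnt4* fell with both, to 5.67, 4.31 and 3.04 FPKM with MLN0128 (log2 fold change -2.77, SE 0.252, adjusted p = 6.23e-05) and 5.24, 9.10 and 12.1 with everolimus (-1.93, SE 0.252, adjusted p = 0.00106). It remained above the normal livers in every library. *Znrf3* rose with both, to 5.75, 4.40 and 4.20 FPKM with MLN0128 (0.52, SE 0.147, adjusted p = 0.0191) and 5.02, 4.63 and 5.67 with everolimus (0.61, SE 0.147, adjusted p = 0.0263). Both comparisons share the 3 vehicle libraries. It was the 1 of 7 other target genes past the threshold with either drug, joined after rescaling to TPM by *Notum* with both (adjusted p = 0.0418 and 0.0473). As deposited *Notum* was at 0.395, 0.487 and 0.312 FPKM with MLN0128 (adjusted p = 0.139) and 0.484, 1.11 and 0.350 with everolimus (adjusted p = 0.0574), above vehicle in all 6 libraries and below normal liver in all 6.

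Of the ligand list, *Wnt2b* was higher with MLN0128 than with vehicle (0.53, adjusted p = 0.00180) and than with everolimus (0.33, adjusted p = 0.0453). It was at 0.657 to 0.763 FPKM with MLN0128 and at most 0.375 in normal liver, 0.244 with vehicle and 0.487 with everolimus. *Wnt2b* thus passed the filter of 0.5 FPKM through the MLN0128 group alone and had to be higher there. *Wnt2* and *Rspo3* did not pass with either drug, with adjusted p values of 0.878 and 0.911 with MLN0128 and 0.328 and 0.170 with everolimus. Of the 10 receptor genes, *Lrp6*, a Wnt co-receptor gene, was higher with MLN0128 (0.37) and everolimus (0.39, though adjusted p = 0.117 after rescaling to TPM), *Fzd4* was lower with MLN0128 (-0.62), *Fzd7* was higher (1.04) and *Fzd6* lower (-0.61) with everolimus (the last not past the threshold after rescaling to TPM, adjusted p = 0.0591), and *Fzd4* was lower with MLN0128 than with everolimus (-0.73). Of the 15 intracellular genes, *Gsk3b* was lower with MLN0128 (-0.31) and *Dvl2* higher with everolimus (0.42), but neither passed after rescaling to TPM (adjusted p = 0.623 and 0.116) or with plain library totals (0.243 and 0.0515). Under both of these scalings 2 of the 15 were higher and 0 lower with MLN0128, and 0 passed with everolimus. *Lgr4*, *Tcf7l2* and *Ctnnb1* did not pass in any of the 3 comparisons among tumors, nor did any secreted inhibitor gene.

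Of the 11 other pericentral genes, *Pon1* rose with MLN0128 (2.15, adjusted p = 0.00270) and with everolimus (1.99, adjusted p = 0.0126), from 1.38, 0.557 and 2.06 FPKM with vehicle to 9.06, 16.5 and 4.6 and to 8.77, 12.6 and 4.31. *Ahr*, the aryl hydrocarbon receptor gene, was lower with MLN0128 (-0.58), though not past the threshold after rescaling to TPM (-0.47, adjusted p = 0.201). *Gulo* rose with everolimus (1.87, adjusted p = 0.0171), and its highest value, 39.2 FPKM, was that of replicate 2. Of the 12 periportal genes, 0 were higher with either drug, *Hsd17b13* (-1.20) and *Ass1* (-0.95) were lower with MLN0128, and *Hsd17b13* (-0.58) was lower with everolimus and lower with MLN0128 than with everolimus (-0.62). These calls depended on the scaling. After rescaling to TPM *Hsd17b13* missed the threshold with everolimus (-0.60, adjusted p = 0.0835) and between the drugs (-0.37, adjusted p = 0.233), the latter also with plain library totals (adjusted p = 0.0780), and 2 periportal genes were higher with MLN0128, *Gls2* and *Ftcd* (0.61 and 0.86), of which *Gls2* was higher with plain library totals as well. Of the 10 general markers, *Tat*, *Ttr* and *Apoa1* were lower (-3.36, -1.38 and -0.84) and *Cebpa* higher (0.80) with MLN0128, and *Tat* and *Ttr* were lower with everolimus (-2.07 and -1.40). *Apoa1* missed the threshold after rescaling to TPM (adjusted p = 0.112) and with plain library totals (0.0644). The medians of the lists were 0.16 and 0.47 for the other pericentral genes, -0.28 and -0.13 for the periportal genes and -0.57 and -0.26 for the general markers, with MLN0128 and everolimus in that order.

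The cholangiocyte markers *Krt19*, *Cldn4* and *Epcam* were lower with both drugs, by -4.05, -3.65 and -1.61 with MLN0128 and -4.04, -4.02 and -1.66 with everolimus on the log2 scale. Of the endothelial markers 0 passed with either drug, and 1, *Egfl7*, was higher with MLN0128 under both other scalings. *Cd68*, a macrophage gene, was lower with both (-1.60 and -1.56), *Marco* was lower with MLN0128 than with everolimus (-2.26), and the stellate cell gene *Des* was higher with MLN0128 (0.59). *Cd68* went against its list with everolimus, where the estimates were positive for 6 and negative for 1 of the 7 Kupffer cell and macrophage genes (median 0.40). With MLN0128 they were negative for 7 and positive for 0 (median -0.41).

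The tested genes most like 4 of the members across the 12 libraries were found by the root mean square difference of log2(FPKM + 1), with each gene centered on its mean. For *Lect2* they were *Gulo* (0.26), *Igf1* (0.27) and *Ugt3a2* (0.28), all with high levels in normal liver and their highest tumor value in everolimus replicate 2. For *Glul* they were *Shld2* (0.21), *Gm13443* (0.23) and *Lactb2* (0.23). For *Axin2* they were *Emc10* (0.10), *A930036K24Rik* (0.12) and *Stk11* (0.12), and for *Tbx3* they were *Cd300c2* (0.20), *Mycn* (0.21) and *Wtip* (0.21). *Axin2* and *Tbx3* span a narrow range on this scale, so that any gene which is slightly higher in normal liver is close to them.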

How the data were processed

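RNA from 12 livers or tumors was sequenced by the authors, with library preparation by Novogene and read counting on Ensembl genes, and they deposited FPKM for 17007 symbols. The aligner was not given in the sources used here. The submitters' processing notes name GRCm38 and FastQC 0.11.7. FPKM, not counts, were tested, with limma 3.58.1 in R 4.3.3 on log2(FPKM + 1) with an intensity trend, for the 14393 genes that reached 0.5 FPKM in 3 or more libraries, all 12 libraries in 1 model with 8 residual degrees of freedom. The 4 rows of 2 repeated symbols were dropped, and 22 symbols read as dates were left as they are. The fit was tested on simulated data.

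Reads were recovered from FPKM and GENCODE M21 exon lengths (16871 symbols matched). Of the values under 20 reads, 98.2% to 98.8% per library came within 0.1 of a whole number, where chance gives 20%. The FPKM carried scaling factors of 0.585 to 0.595 in normal liver and 1.10 to 1.37 in tumors. Intervals from reads and the 3-read floor cover counting error only. With 3 libraries a group, the labels do not say that each is a separate mouse, so p-values measure the spread between these libraries, and an exact permutation test could not go below 0.1.

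The members, gene lists and alternatives were chosen with earlier results of these data known. Named beside the members are up to 3 genes per list, direction and comparison with the largest change among those that pass, and *Wnt2*, *Wnt9b*, *Rspo3*, *Znrf3*, *Lgr4* and *Tcf7l2* in any case, apart from 1 gene that is not reported here. *Sp5*, *Notum*, *Ctnnb1*, *Pon1*, *Gulo*, *Alb*, *Clec4f* and *Lrat* are given by library, and *Gls2*, *Ftcd* and *Egfl7* are named, because of their values. The 22 alternatives covered the pseudocount, filter, scaling, voom, treat, the libraries in the model, the trend, a block for the replicate number and the omission of each library. Same-numbered libraries did not deviate together (18 pairs, r from -0.29 to 0.15, 1 over 0.1), so the numbers were not used as pairs. Figures were drawn with matplotlib 3.10.9.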

Additional observations from a re-analysis of the deposited data

How the results depend on the processing

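All 10 members stayed below normal liver in the vehicle group under all 22 alternatives, and their number past the threshold was 10 under all but treat, which gave 9. In the fits that keep the filter, this direction is tied to it for *Slc1a2*, *Axin2*, *Lgr5*, *Nkd1*, *Rnf43* and *Tbx3*, which needed normal liver to pass. With MLN0128 the number of members higher than with vehicle was 0, and 1 with a pseudocount of 0.1 and with voom (*Slc1a2*). With everolimus it was 1 (*Lect2*), and after rescaling to TPM 1, which was *Slc1a2* (0.72) and not *Lect2* (1.54). It was 2 with a pseudocount of 0.1, with plain library totals and with voom, and 0 with treat, with 2 groups only, with the replicate block and without the pair of MLN0128 libraries with *Xist* RNA. With each library left out in turn it was 0 to 1. The number lower with MLN0128 than with everolimus was 0, and 1 with voom. Estimates that changed sign, none of them past the threshold, were those of *Rgn* with MLN0128 (0.12 after rescaling to TPM and 0.025 with plain library totals), *Rnf43* and *Tbx3* with MLN0128 (-0.086 and -0.0069 without the *Xist* libraries) and *Glul* between the drugs (-0.064 without them). With 1 library left out, estimates that changed sign in some fits ranged for MLN0128 against vehicle from -0.056 to 0.21 (*Oat*), from -0.82 to 0.37 (*Rgn*), from -0.025 to 0.15 (*Tbx3*) and from -0.088 to 0.0098 (*Nkd1*), and for MLN0128 against everolimus from -0.014 to 0.35 (*Glul*) and from -0.27 to 0.020 (*Rnf43*). The cause was not tested. The scaling moved the median of all genes in vehicle-treated tumors, on the log2 scale, from 0.06 to 1.00 (TPM) and 0.62 (plain library totals), where 9650 and 8821 genes were higher and 1689 and 2179 lower, against 5176 and 4750. With MLN0128 against vehicle, TPM gave 3548 genes higher and 1269 lower (2142 and 2463 as reported), and against everolimus 1256 and 196 (575 and 797), with 1194 and 403 by plain library totals. The replicate number as a block left 323 genes higher and 654 lower with everolimus (542 and 870 without it) and 373 and 441 between the drugs, and 0 of 12 libraries correlated best with their own number. Fitting 2 groups only gave 310 and 592 with everolimus and 1 and 5 between the drugs. Treat gave 5 and 82 genes with everolimus. The depth left *Lgr5*, *Axin2* and *Slc1a2* in tumors at counts where ratios rest on few reads.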
